A study of Gossypium barbadense and Gossypium hirsutum with 72 samples.

Results

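NF-YC13 (CotAD_21647), annotated as a subunit of the CCAAT-binding factor, was followed through 36 mRNA libraries of cotton shoot apices. It is 1 gene of 64274 that had a read in any library. The gene was chosen by its identifier from a list of genes that differed between branch types at the pre-squaring stage in both cotton species, so the contrast between branch types selected it and is described here without a test. Apices of about the same size were cut from field-grown plants of 4 selfed lines, which are not near-isogenic pairs. Hai1 (normal branch) and Xinhai16 (nulliplex branch) are lines of Gossypium barbadense, and Huazhong 94-3130 (normal branch) and 3798 (nulliplex branch) are lines of G. hirsutum. Nulliplex-branch plants carry flowers directly on the main stem in place of fruiting branches. Group names give the species (Gb or Gh), the stage (1 for seedling, 2 for pre-squaring before any visible floral bud, 3 for squaring) and the branch type (WT for normal, np for nulliplex), with 3 libraries in each of the 12 groups. All seedlings had 2 leaves. The labels give 8 leaves for Gb2WT, 6 for Gb2np, 6 for Gh2WT, 5 for Gh2np, 11 for Gb3WT, 9 for Gb3np, 8 for Gh3WT and 12 for Gh3np. The study's methods give fewer leaves for Gb3WT and for Gh3np, and there the same range for Gh3np and Gh3WT, so the leaf numbers at squaring are uncertain. Within a line the stage cannot be told apart from the leaf number, and by the labels leaf number also differed between the branch types at the later stages.

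NF-Y is a transcription factor made of an NF-YA, an NF-YB and an NF-YC subunit. NF-YB and NF-YC pair through histone-fold domains, and NF-YA joins the pair and contacts the CCAAT box in promoters. In Arabidopsis some NF-YC proteins act with CONSTANS in the photoperiodic control of flowering, and plants hold several genes for each subunit. The annotation available here paired no other cotton identifier with an NF-Y subunit, so the partners of NF-YC13 are not given.

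The libraries held a median of 25228470 counted reads, the largest 1.18 times the smallest, and listed 51699 to 54925 genes each. NF-YC13 has a coding length of 432 bases and was listed in 36 of 36 libraries. It drew 1837 reads in all, from 5 to 215 per library, and the reads covered 65.74% to 99.31% of its length (median 91.67%). Levels are given as RPKM, reads scaled to the coding length and to the library total. Counting intervals (exact Poisson, 95%) cover counting error only. Across replicates the variance of the read number was over 3 times its mean in 8 of the 12 groups. In those groups the spread between plants or libraries, and not counting alone, set the precision. In the rest the ratio ran from 0.504 (Gb1np) to 2.86 (Gb2np), each from 3 libraries. All reads were aligned to the G. hirsutum genome, and near-identical copies of a gene in this polyploid could share or split reads.

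In G. barbadense the means of the normal branch stayed between 1.66 and 2.78 RPKM, and the highest mean was that of the nulliplex branch at pre-squaring. NF-YC13 measured 1.31, 4.88 and 2.14 RPKM in Gb1WT and 3.30, 4.18 and 4.21 RPKM in Gb1np. The Gb1WT libraries spanned the whole range of Gb1np. At pre-squaring the 3 Gb2WT libraries held 1.35, 2.28 and 1.33 RPKM and the 3 Gb2np libraries 4.94, 6.82 and 7.33 RPKM. Every Gb2np library was above every Gb2WT library. At squaring the values were 2.54, 3.07 and 2.13 RPKM in Gb3WT and 4.29, 2.44 and 4.23 RPKM in Gb3np, and 1 nulliplex library fell among the normal ones.

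In G. hirsutum the highest level moved from the nulliplex branch at pre-squaring to the normal branch at squaring. NF-YC13 measured 2.06, 7.98 and 1.22 RPKM in Gh1WT and 3.67, 9.52 and 5.36 RPKM in Gh1np. Replicate 2 was the highest library of both seedling groups, which overlapped. Gh2WT held 1.85, 0.453 and 3.88 RPKM, the second value resting on 5 reads. Gh2np held 9.08, 11.5 and 7.80 RPKM, all above Gh2WT. At squaring this order turned. The Gh3WT libraries held 6.90, 10.3 and 19.0 RPKM, the highest level of the gene in any group, and the Gh3np libraries 1.43, 2.29 and 0.895 RPKM, the lowest group mean.

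**Figure D1:**
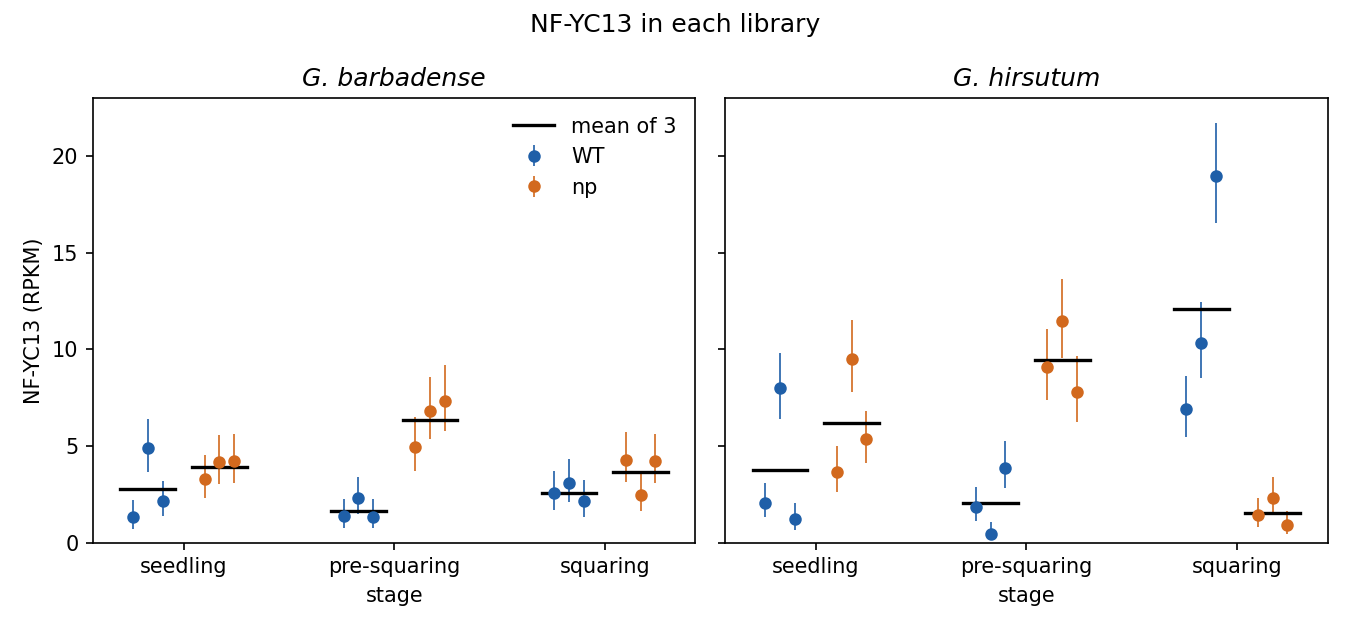
Level of NF-YC13 (RPKM) in each of the 36 libraries by stage, with G. barbadense on the left and G. hirsutum on the right. Points are libraries with exact Poisson 95% intervals of the read count, blue for WT and orange for np, and black bars are means of 3. The Gh2np libraries lie between 7.80 and 11.5 RPKM and the Gh3np libraries between 0.895 and 2.29 RPKM.

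Ordered by group mean, NF-YC13 was highest in Gh3WT at 12.1 ± 6.23 RPKM (SD, n = 3), followed by Gh2np at 9.44 ± 1.85, Gb2np at 6.36 ± 1.26 and Gh1np at 6.18 ± 3.01. The middle of the order was held by Gb1np at 3.90 ± 0.517 RPKM, Gh1WT at 3.75 ± 3.68, Gb3np at 3.65 ± 1.05 and Gb1WT at 2.78 ± 1.87. The lowest means were 2.58 ± 0.470 RPKM in Gb3WT, 2.06 ± 1.72 in Gh2WT, 1.66 ± 0.541 in Gb2WT and 1.54 ± 0.703 in Gh3np. The highest mean was 7.85 times the lowest. Neighbours in this order overlapped in 10 of 11 cases, the exception being Gh2np over Gb2np, and 30 of the 66 pairs of groups had no overlap. Among all genes listed in a group, NF-YC13 ranked at the 71.0 percentile in Gh3WT and at the 29.9 percentile in Gh3np. The 2 groups with the most even libraries were Gb1np, with a coefficient of variation of 13.3%, and Gb3WT, with 18.2%. The most uneven was Gh1WT, with 98.0%.

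The branch contrast, which chose the gene, asked where the nulliplex line differed from the normal line of its species. At pre-squaring the mean level was 3.84 times as high in Gb2np as in Gb2WT and 4.58 times as high in Gh2np as in Gh2WT. On TMM-scaled counts, which correct the library totals for a few very abundant genes, the log2 fold changes from edgeR were 1.91 (SE 0.30) and 2.17 (SE 0.52). At squaring the G. hirsutum contrast had the opposite sign, with Gh3WT 7.85 times as high as Gh3np and a log2 fold change of -3.05 (SE 0.46) for nulliplex over normal. In G. barbadense it kept its sign at squaring but was small, with a log2 fold change of 0.45 (SE 0.32) for Gb3np over Gb3WT. The seedling values were 0.45 (SE 0.44) in G. barbadense and 0.73 (SE 0.69) in G. hirsutum, with overlapping libraries in both. Without replicate 2 of Gh1WT the log2 ratio of the seedling means in G. hirsutum went from 0.72 to 1.91.

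Replication and chromatin genes of the same study list mostly had fold changes of the same sign as NF-YC13 in these contrasts, as had some of the tissue markers. The list holds PCNA2, a sliding clamp of DNA polymerase, ORC6, a subunit of the origin recognition complex, BARD1, a homologue of a RING protein of DNA repair, ATXR6, in Arabidopsis a histone methyltransferase of replicating heterochromatin, and a pair of genes annotated SYN3 (CotAD_06239, here SYN3a, and CotAD_07322, here SYN3b), homologues of a cohesin subunit. The study chose this list on these samples and by this contrast, so its direction is no independent evidence and the values are descriptive. At pre-squaring the 6 genes had log2 fold changes of 1.11 to 1.99 in G. barbadense (median 1.68) and of 1.23 to 1.95 in G. hirsutum (median 1.76), all higher in the nulliplex branch. At squaring in G. hirsutum all 6 were lower in the nulliplex branch, from -1.78 for ATXR6 to -0.70 for BARD1 (median -1.03). NF-YC13, at -3.05, lay below each of them there. In G. barbadense seedlings 5 of the 6 had a negative value (median -0.18), where NF-YC13 had a positive one. Of the tissue markers, the leaf genes CA1 (log2 fold changes of 1.42 in G. barbadense and 1.01 in G. hirsutum), GGR (2.68 and 1.26) and a ferredoxin-related gene (1.04 and 1.31) and the floral gene SEP3 (2.50 and 2.16) were also higher in the nulliplex branch at pre-squaring. TROL, another leaf gene, had 1.20 and -1.27, SUC2, of the phloem, -3.29 and -0.72, HB-8, of vascular tissue, -1.87 and 0.01, and the cell cycle regulator CYCD1;1 -0.47 and 6.38. At squaring in G. hirsutum the 4 leaf genes had -0.67 (CA1), -0.70 (ferredoxin-related), -0.24 (GGR) and -0.28 (TROL), while SUC2 had 2.54, HB-8 0.63, SEP3 0.59 and CYCD1;1 3.78. Leaf gene is a label of the marker list here, and whether each such gene follows leaf content was not tested. The part of leaf, vascular and floral tissue in the NF-YC13 contrast was not tested.

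**Figure D2:**
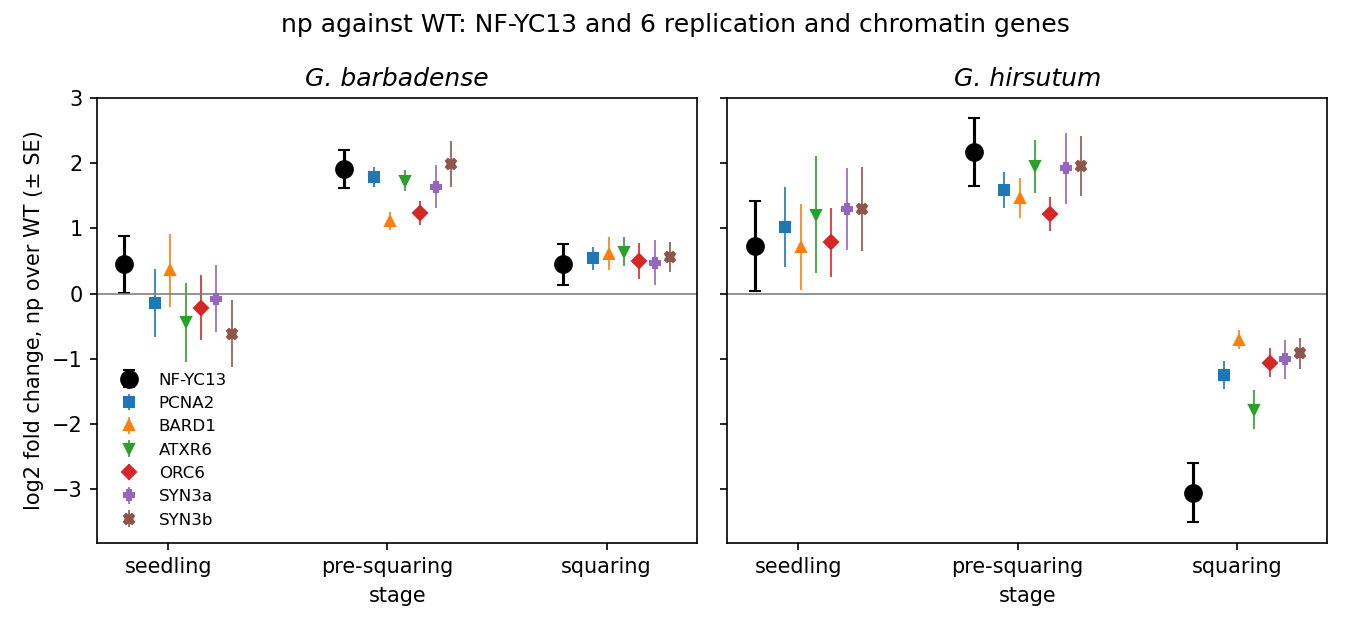
Log2 fold change of nulliplex over normal branch (± SE, edgeR on TMM-scaled counts, 3 against 3 libraries) at each stage, with G. barbadense on the left and G. hirsutum on the right. Large black circles are NF-YC13 and coloured symbols the 6 replication and chromatin genes. All 7 genes are above 0 at pre-squaring in both species and below 0 at squaring in G. hirsutum.

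Each stage was then compared with the others within a line. This contrast did not itself choose the gene, but it shares the pre-squaring libraries with the contrast that did. The choice favours high values in Gb2np and Gh2np and low values in Gb2WT and Gh2WT. Falls from the former and rises from the latter can therefore be overstated, and comparisons with pre-squaring are not independent of the choice. A gene was called where its adjusted p was below 0.001 and its level changed more than 2-fold either way (edgeR quasi-likelihood test, Benjamini-Hochberg adjustment over all genes of the comparison), thresholds that the study set. NF-YC13 passed in 1 of the 12 stage comparisons. It fell from pre-squaring to squaring in the nulliplex branch of G. hirsutum, from 9.44 to 1.54 RPKM, a log2 fold change of -2.60 (SE 0.32, 6.05-fold) with an adjusted p of 0.000597. Every Gh3np library was below every Gh2np library. Of 46652 genes tested there, 3.74% were called. The adjusted p lay close to the threshold and rose above it, to between 0.00136 and 0.00359, without any 1 of 5 of the 6 libraries (all but Gh2np replicate 2), where the log2 fold change stayed between -2.98 and -2.34. One fit of all 36 libraries gave an adjusted p of 0.0019.

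In the normal branch of G. hirsutum the same interval ran the other way. Gh3WT was 6.17-fold higher than Gh2WT by the fitted value, a log2 fold change of 2.62 (SE 0.60), without overlap of the libraries. The adjusted p of 0.0114 (edgeR) did not pass the threshold, in a comparison where 2.06% of genes were called. DESeq2 gave 2.31e-05 and the fit of all 36 libraries 0.000617, both of which pass. Squaring against seedling gave 1.49 (SE 0.66, adjusted p = 0.102, edgeR) for Gh3WT and -2.32 (SE 0.44, adjusted p = 0.0073, edgeR) for Gh3np, with 10.2% and 3.54% of genes called. The second passed with DESeq2 at 1.95e-05. Pre-squaring against seedling gave -1.15 (SE 0.85, adjusted p = 0.308, edgeR) for Gh2WT and 0.30 (SE 0.32, adjusted p = 0.495, edgeR) for Gh2np, with 4.94% and 1.19% of genes called. The negative value for Gh2WT rested on replicate 2 of Gh1WT, without which it was 0.01.

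In G. barbadense no stage comparison of NF-YC13 was called by edgeR, nor by DESeq2 in the 5 of 6 for which DESeq2 gave an adjusted p. For the normal branch the log2 fold changes were -1.07 (SE 0.48, adjusted p = 0.0851, edgeR) for Gb2WT over Gb1WT, -0.36 (SE 0.45, adjusted p = 0.541, edgeR) for Gb3WT over Gb1WT and 0.67 (SE 0.35, adjusted p = 0.272, edgeR) for Gb3WT over Gb2WT. The shares of all genes called were 20.3%, 17.4% and 0%. The last comparison had 10858 genes at an unadjusted p under 0.05, and DESeq2 called 396 in it. Without replicate 2 of Gb1WT the value for Gb3WT over Gb1WT became 0.29. For the nulliplex branch the values were 0.42 (SE 0.24, adjusted p = 0.171, edgeR) for Gb2np over Gb1np, -0.37 (SE 0.29, adjusted p = 0.307, edgeR) for Gb3np over Gb1np and -0.79 (SE 0.27, adjusted p = 0.0501, edgeR) for Gb3np over Gb2np, with 16.5%, 15.2% and 4.11% of genes called. The unadjusted p of the last was 0.0174, the lowest of the 6 in this species.

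**Figure D3:**
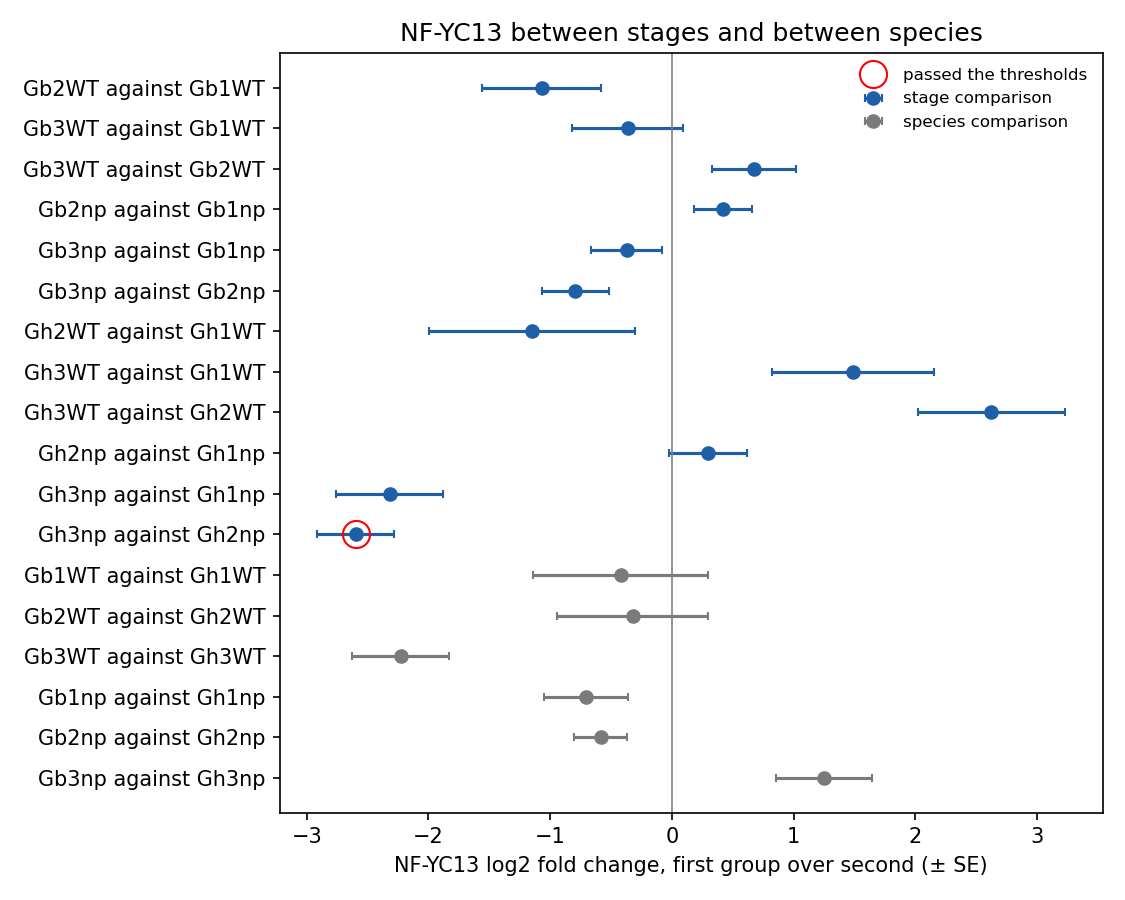
Log2 fold change of NF-YC13 (± SE, edgeR) in the 12 stage comparisons (blue) and the 6 species comparisons (grey), each written as the first group over the second. The red ring marks the comparison that passed both thresholds, Gh3np over Gh2np at -2.60, and the opposite value of the normal branch, Gh3WT over Gh2WT, is 2.62.

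The replication and chromatin genes were called in 2 of the stage comparisons. As for NF-YC13, the study's choice favours high values of these genes in Gb2np and Gh2np and low values in Gb2WT and Gh2WT. Their rises to and falls from Gb2np and Gh2np, and their rises from Gb2WT and Gh2WT, can therefore be overstated. Over the 12 together 8.33% of their gene comparisons were called, beside 8.24% for all genes tested, so the list was called about as often as genes in general. ATXR6 (log2 fold change -2.07), BARD1 (-1.18) and PCNA2 (-1.15) fell from Gh2np to Gh3np, 3 of the 6, where 3.74% of all genes were called, while the others had values of -1.05 (ORC6), -1.21 (SYN3b) and -1.35 (SYN3a). The median of the 6 was -1.20 beside -0.01 over all genes tested. SYN3b (2.56), SYN3a (1.99) and ATXR6 (1.85) rose from Gb1np to Gb2np (median of the 6 1.59, all genes 0.03), where 16.5% of all genes were called, a step at which NF-YC13 had 0.42 and was not called. In the normal branch of G. hirsutum, from pre-squaring to squaring, the 6 had values of 0.98 to 1.69 (median 1.62). None was called by edgeR, where 2.06% of all genes were, with 6 at an unadjusted p under 0.05 (edgeR) and 3 called by DESeq2. Of the 72 gene comparisons over the 12 stage comparisons, 6 were called by edgeR, 17 by DESeq2 and 1 in the fit of all 36 libraries. The shares of all genes under p 0.05, called by DESeq2 or called in the joint fit are not given here. Those counts are therefore not read as a result about these genes. Leaving out 1 library moved the 3 calls from Gh2np to Gh3np to between 0 and 3 and those from Gb1np to Gb2np to between 0 and 6. The cell cycle regulator CYCD1;1, listed with the tissue markers, showed another pattern (r = -0.08 with NF-YC13 over the 36 libraries), with 5.36 RPKM in Gh2np and 7.88 in Gh3np, and 0.0581 RPKM in Gh2WT and 0.543 in Gh3WT.

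The species comparison asked whether the 2 species differed at the same stage and branch type. Both were aligned to the genome of G. hirsutum, and the part of the alignment in these differences was not tested. NF-YC13 was called in 0 of 6 comparisons by edgeR, with 3 at an unadjusted p under 0.05, and in 1 by DESeq2. The shares of all genes at that unadjusted level or called by DESeq2 are not given here. The largest difference was at squaring in the normal branch, where Gb3WT was 4.69-fold lower than Gh3WT without overlap, a log2 fold change of -2.23 (SE 0.40, adjusted p = 0.00216, edgeR), and 8.11% of genes were called. DESeq2 gave 9.64e-07 for it. In the nulliplex branch the sign was the opposite, 1.25 (SE 0.39, adjusted p = 0.0302, edgeR) for Gb3np over Gh3np, where 10.3% of genes were called. At pre-squaring the values were -0.32 (SE 0.62, adjusted p = 0.704, edgeR) for the normal and -0.59 (SE 0.22, adjusted p = 0.0531, edgeR) for the nulliplex branch, with 11.8% and 11% of genes called. Seedlings gave -0.42 (SE 0.72, adjusted p = 0.73, edgeR) and -0.71 (SE 0.35, adjusted p = 0.233, edgeR), with 3.56% and 1.42% of genes called. The 2 comparisons of the normal branch before squaring changed sign when replicate 2 of Gh1WT (0.76) or replicate 3 of Gh2WT (0.50) was left out.

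Whether a stage effect differed between species was tested as a contrast in 1 fit of all 36 libraries. None of the 6 differences was called by edgeR or DESeq2, and 4 had an unadjusted p under 0.05. The 4 were those that involve squaring. Those of the same branch type share their squaring libraries, so they are not separate results. The share of all genes at that unadjusted level is not given here. G. barbadense less G. hirsutum, the differences were -1.83 (SE 0.78, adjusted p = 0.121, edgeR) for squaring against seedling and -1.93 (SE 0.83, adjusted p = 0.144, edgeR) for squaring against pre-squaring in the normal branch. In the nulliplex branch they were 1.98 (SE 0.80, adjusted p = 0.107, edgeR) and 1.84 (SE 0.79, adjusted p = 0.214, edgeR). Of all genes 1.78%, 0.85%, 1.2% and 0.347% were called in these contrasts. For pre-squaring against seedling the differences were 0.10 (SE 0.84, adjusted p = 0.986, edgeR) in the normal and 0.14 (SE 0.74, adjusted p = 0.957, edgeR) in the nulliplex branch, with 1.14% and 0.742% of genes called.

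Genes with a pattern like that of NF-YC13 were ranked by Pearson's r of log2(RPKM + 1) over the 36 libraries, among 51916 genes with at least 10 reads in at least 3 libraries. The libraries of a group share line, stage and leaf number, so r is a description and carries no p. The median r of all genes was 0.00 and the 99th percentile 0.57. The nearest gene was CotAD_24655 (r = 0.88), which is not annotated in the sources used here and averaged 9.08 RPKM in Gb2np, 9.95 in Gh2np, 10.3 in Gh3WT and 3.42 in Gh3np. CotAD_65204 came next (r = 0.86), with 3.85 RPKM in Gb2np, 3.29 in Gh2np, 5.24 in Gh3WT and 0.846 in Gh3np. Its coding length, 432 bases, equals that of NF-YC13, a length shared by 131 other genes in all, and whether it is a copy of NF-YC13 was not tested. The 10 nearest genes had r of 0.82 to 0.88, and all 10 had their highest group mean in Gh3WT, Gh2np or Gb2np. These are also the highest groups of NF-YC13, so this follows largely from the ranking by r. The most opposite genes were CotAD_17868 (r = -0.81), with 45.6 RPKM in Gh3np and 21.2 in Gh2np, and CotAD_47352 (r = -0.80), with 24.6 RPKM in Gh2WT and 14.4 in Gh3WT.

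Of the named genes, the replication and chromatin genes stood nearest to NF-YC13. ATXR6 had r = 0.80, with 12 of the 51916 genes above it, SYN3a 0.77, PCNA2 0.74, SYN3b 0.71, BARD1 0.66 and ORC6 0.63. The same contrast selected both lists, and r uses the same pre-squaring libraries, so r is not independent of that choice. At pre-squaring all the replication and chromatin genes were higher in the nulliplex branch of both species, as was NF-YC13. None of the other regulators of the study list was. Over all libraries these regulators did not follow NF-YC13. Their r ran from -0.48 for RAV1, an AP2/B3 transcription factor, and -0.38 for IAA18, a repressor of auxin response, through -0.11 for SVP, a MADS-box repressor of flowering, to 0.15 for the aspartyl protease homologue CotAD_00066. The clock genes LHY, PRR5 and EPR1 had r of 0.07, -0.01 and -0.07, and BRC1, a TCP factor that restrains bud outgrowth, had -0.07. At the step from Gh2np to Gh3np, where NF-YC13 fell, 3 of the 8 regulators were called, beside 3.74% of all genes tested. LHY (log2 fold change -3.23) also fell, and SVP (2.12) and RAV1 (1.24) rose. Over the 12 stage comparisons 31 of the 96 gene comparisons of the regulators were called (32.3%), beside 8.24% for all genes tested. Of the 96, 93 passed the low-count filter, and the 8.24% counts tested genes only. The study chose these regulators for a difference at pre-squaring on these libraries. Their calls in comparisons with pre-squaring, the step from Gh2np to Gh3np included, are therefore favoured by the choice and are not independent of it.

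**Figure D4:**
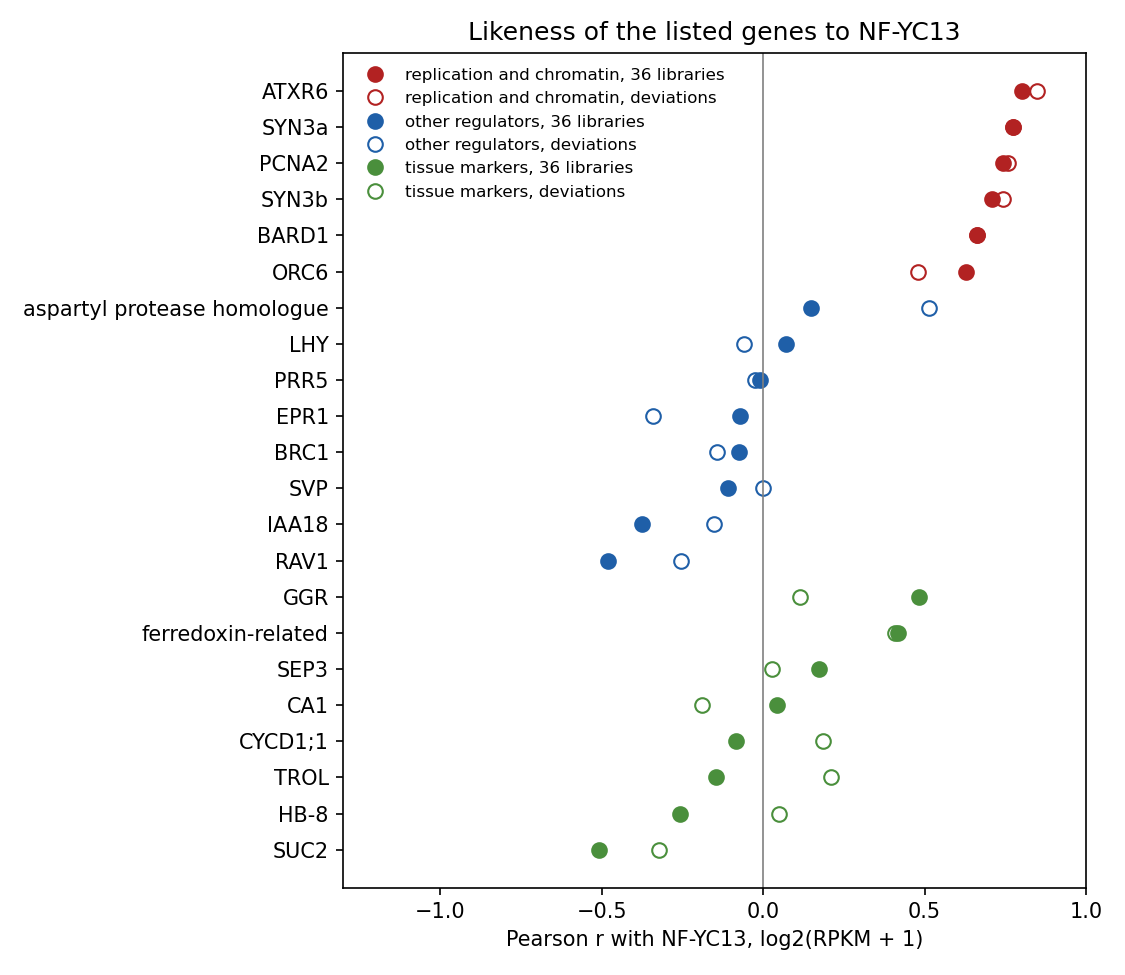
Pearson's r with NF-YC13 on log2(RPKM + 1) for the 6 replication and chromatin genes (red), the 8 other regulators (blue) and the 8 tissue markers, CYCD1;1 included (green). Filled points use the 36 libraries and open points the deviations of the libraries from their group means. The red points lie at 0.63 to 0.80 when filled and at 0.48 to 0.85 when open.

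The spread among replicates was also compared. The study's test used the size of this spread at pre-squaring, but not which replicate was high. Of these 6 genes, 5 lay above the 99th percentile of all genes. After each library's group mean was subtracted, r with NF-YC13 was 0.85 for ATXR6, the highest of the 51916 genes, 0.77 for SYN3a, 0.76 for PCNA2, 0.74 for SYN3b, 0.66 for BARD1 and 0.48 for ORC6. The median over all genes was 0.06 and the 99th percentile 0.63. Deviations of a library share its depth and its tissue, and the 3 of a group sum to 0. The replicate with the most NF-YC13 was also that with the most ATXR6 in 10 of the 12 groups, with the most SYN3a in 10, with the most PCNA2 or SYN3b in 9 and with the most BARD1 or ORC6 in 7. For the 8 other regulators this number was 1 to 7 and for the 8 tissue markers, CYCD1;1 included, 3 to 7. BARD1 and ORC6 thus did not stand apart. The same count over all genes was not made. The replicate with the least NF-YC13 matched less clearly, in 5 to 7 groups for the 6 replication and chromatin genes, 2 to 5 for the other regulators and 3 to 6 for the tissue markers. Replicate 2 of Gh1np, the highest of its group for NF-YC13, held 12.3 RPKM of ATXR6 against 3.17 and 3.52 in the other libraries. PCNA2 was 62.9 RPKM in it against 18.3 and 16.8. Replicate 2 of Gh1WT held 6.53 RPKM of ATXR6 against 0.973 and 0.684. An exception was replicate 2 of Gb1np, with the least PCNA2 of its group (10.4 RPKM against 22.0 and 36.6) and an NF-YC13 level of 4.18 RPKM, close to the highest. Without the 6 G. hirsutum seedling libraries, a choice made after seeing the data like the next, r of the deviations was 0.79 for SYN3a, 0.76 for ATXR6, with 13 genes above it, 0.70 for SYN3b, 0.67 for PCNA2, 0.57 for BARD1 and 0.44 for ORC6. Over the pre-squaring and squaring libraries alone it was 0.81 for SYN3a, 0.78 for PCNA2 and for ATXR6, with 48 genes above ATXR6, 0.67 for SYN3b, 0.63 for BARD1 and 0.31 for ORC6, with 8746 genes above it.

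An apex of this size can hold leaf, vascular and floral tissue, and in bulk RNA fewer cells of a type and less RNA per cell cannot be told apart. Carbonic anhydrase CA1, an abundant enzyme of green leaves, was 104 RPKM in replicate 2 of Gh1np against 1357 and 1224 in the other libraries of the group, and its part in the NF-YC13 value of that library was not tested. Over the 36 libraries r with NF-YC13 was 0.04 for CA1, 0.48 for GGR, which the study bins with isoprenoid metabolism, and 0.42 for a ferredoxin-related gene. It was -0.15 for TROL, a thylakoid protein, and -0.51 for SUC2, a phloem sucrose transporter. For HB-8, a homeobox gene of vascular tissue, it was -0.26, and for SEP3, a floral organ identity gene, 0.17. GGR averaged 3.55 RPKM in Gb1WT and 17.7 in Gb2np, where CA1 averaged 1080 and 59.1. Between these groups GGR thus did not follow CA1. From Gb1np to Gb2np the log2 fold change was -3.95 for CA1, 0.86 for GGR, 1.78 for the ferredoxin-related gene and 0.82 for TROL. From Gh1np to Gh2np the values were -5.37, 1.53, 1.02 and 0.92 in the same order. From Gb1WT to Gb2WT GGR (-0.72) and TROL (-0.33) fell with CA1 (-5.99), but by less. The sums without CA1 thus rest on genes that did not follow CA1 in the nulliplex branch. Sums that include these genes need not measure leaf content. SEP3 was at 0 in all 12 seedling libraries. The 4 green-leaf markers summed to 70.4 to 80.6 RPKM in Gh2np and to 56.7 to 64.0 in Gh3np, and without CA1, whose mean was 28.7 RPKM in Gh2np and 34.5 in Gh3np, to 44.2 to 46.6 and to 22.4 to 29.2, while SUC2 was 1.31 RPKM in Gh2np and 8.56 in Gh3np. From Gh2WT to Gh3WT the sum of the 4 went from 32.2 to 43.6 up to 72.1 to 89.1 RPKM. Without CA1 it went from 19.4 to 27.2 up to 30.4 to 32.4 RPKM. TROL had the opposite order, with a mean of 5.54 RPKM in Gh2WT and 2.09 in Gh3WT, while SUC2 was 2.11 and 1.40. The part of these tissues in the NF-YC13 differences was not tested.

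**Figure D5:**
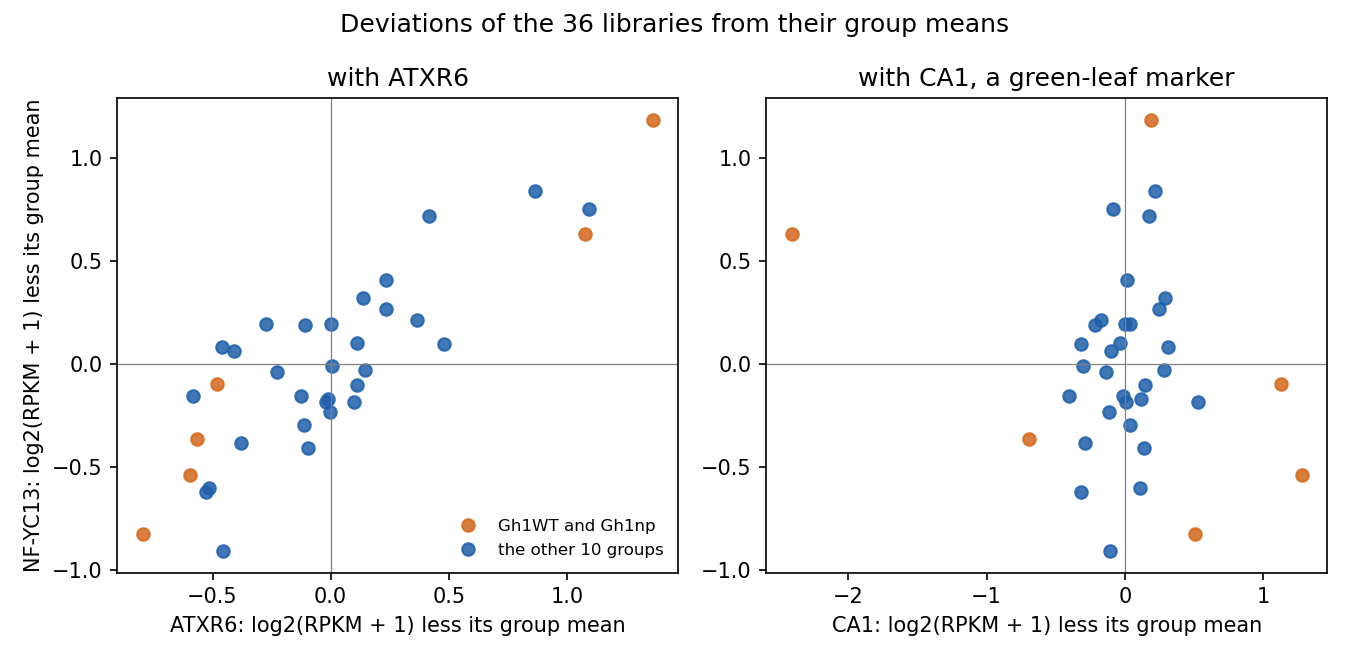
Deviation of NF-YC13 from its group mean, log2(RPKM + 1), in each of the 36 libraries against that of ATXR6 on the left (r = 0.85) and of the green-leaf marker CA1 on the right (r = -0.19). Orange points are the 6 libraries of Gh1WT and Gh1np and blue points the other 30. The orange point far to the left for CA1 is replicate 2 of Gh1np.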

How the data were processed

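Shoot apex mRNA was sequenced on an Illumina instrument from 12 groups of 3 libraries, described as biological replicates. Per the paper's methods the authors removed low-quality reads and adaptors and mapped what remained against the genome of G. hirsutum (SOAP2). The treatment of reads that fit several gene models is not given in the sources used here. The deposited values are counts of unique reads per gene, and genes not listed in a library were set to 0. The RPKM values are also the authors', who divided the counts by coding length and library total, and RPKM recomputed in this way matched to a relative 2.4e-14. The deposited coverage score gives the covered share of each gene's length in percent. Small RNA counts were not used here.

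Pairs of groups were compared with edgeR 4.0.16 in R 4.3.3 (quasi-likelihood F test, TMM, filterByExpr with a minimum count of 10), and the Benjamini-Hochberg adjustment covered every gene tested. Standard errors were derived from the fold change and F. Tests were checked on simulated data. Alternatives were DESeq2 1.42.0, no filter, a replicate block, limma 3.58.1 on log2(RPKM + 1), a joint fit of the 36 libraries and leaving out libraries. Values on the RPKM scale sit higher at later stages, since the median gene differed from seedling by 0.175 to 0.31 (log2) on it and by 0.00781 to 0.0346 after TMM.

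The gene and the lists were chosen with earlier results of these data known. Named genes are NF-YC13, every list gene, and those highest and lowest in correlation with it, of which only the first 2 of each are printed where they carry no annotation. Replicate pairs differed beyond sampling noise (chi-square per degree of freedom 2.103 to 80), and none was a duplicate. Of the 24 pairs of groups compared, 0 had same-numbered libraries that deviated together (r over 0.1 for all 3 numbers), so replicate numbers were not treated as pairs.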

Additional observations from a re-analysis of the deposited data

Results flagged for a closer look

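The branch contrast of NF-YC13 in G. hirsutum had opposite signs at successive stages. Every Gh2np library was above every Gh2WT library, with a log2 fold change of 2.17, and every Gh3np library was below every Gh3WT library, with a log2 fold change of -3.05. This difference between stages was not tested, since the branch contrast chose the gene. By the labels Gh3np had 12 leaves and Gh3WT 8, while the study's methods give both the same range, and the part of leaf number was not tested.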

How the results depend on the processing

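Alternatives were run on the comparisons of NF-YC13, the list counts and the likeness ranking. Of their values, 289 stayed the same, 20 moved further, 9 reversed, 4 gained and 6 lost a call. Tested comparisons counted as the same if direction and side of the threshold were kept, and most of these were uncalled in both runs. Branch ratios counted as the same within the spread between replicates, and list counts and the ranking within a set ratio to the main count. All 6 losses were of the call of Gh3np over Gh2np. DESeq2 called Gh3WT over Gh2WT (log2 fold change 2.63), Gh3np over Gh1np (-2.35) and Gb3WT over Gh3WT (-2.24) in addition, and the fit of all 36 libraries called Gh3WT over Gh2WT (2.62) but not Gh3np over Gh2np (-2.62). The cause was not tested. On log2(RPKM + 1) with limma 2 uncalled values reversed, Gb3WT over Gb1WT (0.0295) and the species difference of pre-squaring against seedling in the nulliplex branch (-0.0285).

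Leaving out 1 library at a time gave ranges of 0.27 to 1.91 for the log2 ratio of Gh1np to Gh1WT, -0.68 to 0.29 for Gb3WT over Gb1WT, -1.98 to 0.0129 for Gh2WT over Gh1WT, -2.98 to -2.34 for Gh3np over Gh2np, -1.05 to 0.76 for Gb1WT over Gh1WT and -0.79 to 0.50 for Gb2WT over Gh2WT. Leaving out a replicate number in every group moved the species difference of pre-squaring against seedling to -1.23 to 1.38 in the normal and -0.0516 to 0.38 in the nulliplex branch. For the replication and chromatin genes the calls ran from 0 to 6 between Gb1np and Gb2np, with 0 without replicate 1 of Gb1np or any Gb2np library, and from 0 to 3 between Gh2np and Gh3np, with at most 1 without replicate 1 or 3 of Gh2np or any Gh3np library. Their 6 calls over the stage comparisons became 17 with DESeq2 and 1 in the fit of all 36 libraries, and their 0 over the species comparisons became 3 with DESeq2. The shares of all genes called in these runs are not given here. Of the 10 genes most like NF-YC13, 4 remained among the first 10 over the 12 group means, 5 to 6 without a replicate number and 4 over the pre-squaring and squaring libraries alone, the last chosen after seeing the data. Ranked by deviations from the group means, 1 of the 10 was among the first 10.

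With the replicate number as a block, the log2 fold change of Gh3np over Gh2np was -2.63 (adjusted p = 0.000801, edgeR) and no call of NF-YC13 changed, while the calls of the replication and chromatin genes over the stage comparisons went from 6 to 3. Same-numbered libraries had correlated deviations of -0.507 to 0.246 (median 0.0125), so the numbers do not mark pairs. DESeq2 gave no adjusted p for Gb3WT over Gb2WT. The depth limits the low groups, where Gh2WT replicate 2 held 5 reads of NF-YC13.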
